A study of Mus musculus with 27 samples.

Results

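The comparison described here is of livers of wild-type mice (WT) with livers of Alb-cre:Aclyf/f mice (KO), 24 hours after ischemia-reperfusion (IR) surgery, in which blood flow to liver tissue is stopped and then restored. In the KO mice the albumin promoter drives Cre recombinase, which removes the floxed part of Acly in hepatocytes, while the other cells of the liver keep the gene. The groups KO IR and WT IR were taken from the sample titles and hold 4 libraries each, 8 of the 16 liver RNA libraries and of the 27 samples in the series. The sample labels give the treatment of the IR livers as hypoxia-reperfusion and that of the sham livers as normoxia, and the design text places the tissue in what it calls the broader zone. The 8 sham libraries, 4 of WT and 4 of KO, served as the background. Age, sex and strain, and whether the WT mice carried the floxed allele, are not given in the sources used here. No label states that each library is 1 animal. The p-values therefore speak of the variation among the libraries alone, which may be technical.

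ATP citrate lyase, the product of Acly, splits citrate outside mitochondria and yields the acetyl-CoA that serves the synthesis of fatty acids and cholesterol and the acetylation of histones. Hepatocytes make up most of the mass of the liver, and a small number of very abundant mRNAs, many for secreted plasma proteins, dominate their RNA. Reperfusion injury kills hepatocytes and draws blood leukocytes into the tissue, and surviving hepatocytes change their transcription in response. In bulk liver RNA, fewer cells of a type and less RNA per cell cannot be told apart.

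The files give RNA levels per Ensembl transcript and do not pair the transcripts with genes. No table that does so was used here, so the level of Acly, the markers that define liver cell types and all pathway genes were not analysed, and the loss of Acly in the KO libraries was not checked. The account below therefore describes groups of transcripts by level, length and behaviour across libraries, and names 4 transcripts by identifier. No sequence is shown for the same reason. A level per transcript can change because a gene changed or because reads moved between its isoforms, and these cannot be told apart.

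In depth, 3 of the 4 KO IR libraries lay below all WT IR libraries. KO IR libraries 1 to 3 held 37.79, 37.9 and 38.22 M estimated counts (1 M is 1000000) and KO IR 4 held 44.35 M, inside the WT IR range of 43.39 to 44.6 M. The mean length of the sequenced fragments was 180.8 ± 2.74 nt in KO IR and 188.6 ± 3.81 nt in WT IR (SD, n = 4, two-sided exact permutation test p = 0.0571). KO IR 4, at 184.8 nt, lay within the WT IR range of 184.1 to 193.1 nt, and KO IR 1 to 3 lay below it. Of 6 such library measures none passed adjustment (smallest adjusted p = 0.2286, and the smallest p that 70 arrangements allow is 0.0286). The part of depth and fragment length in the results was not tested.

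After IR, KO livers held 799 transcripts above the WT level and 643 below it, 1442 of the 36041 tested (edgeR quasi-likelihood test, Benjamini-Hochberg adjusted p under 0.05). That is 4.0% of the transcripts tested, 2.22% above and 1.78% below. Those above had a median log2 fold change of 1.05, with quartiles of 0.66 and 1.61, and those below one of -0.87, with quartiles of -1.27 and -0.61. Over all transcripts tested it was -0.01. A difference of at least 2-fold was found in 417 of the transcripts above and 265 of those below, at least 4-fold in 127 and 53, and at least 8-fold in 64 and 24. Differences under 0.5 on the log2 scale made up 116 and 90 of the calls.

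Taken over all levels together, transcripts above WT were thus the more numerous and had the larger median fold. The order of the counts depended on the filter on low counts, and its size on the scaling between libraries. With no filter 451 transcripts lay above WT and 436 below. With RLE factors, another scaling, 832 lay above and 607 below. With at least 10 CPM in 4 libraries, 641 transcripts lay above WT and 658 below. TMM scaling, which assumes that most transcripts do not differ, gave factors of 1.075 to 1.2 in KO IR and 0.864 to 1.017 in the other libraries. With library totals only, the median log2 fold change of all transcripts was 0.2, and 2267 transcripts lay above WT and 372 below. Changes are given here relative to the TMM scale.

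**Figure D1:**
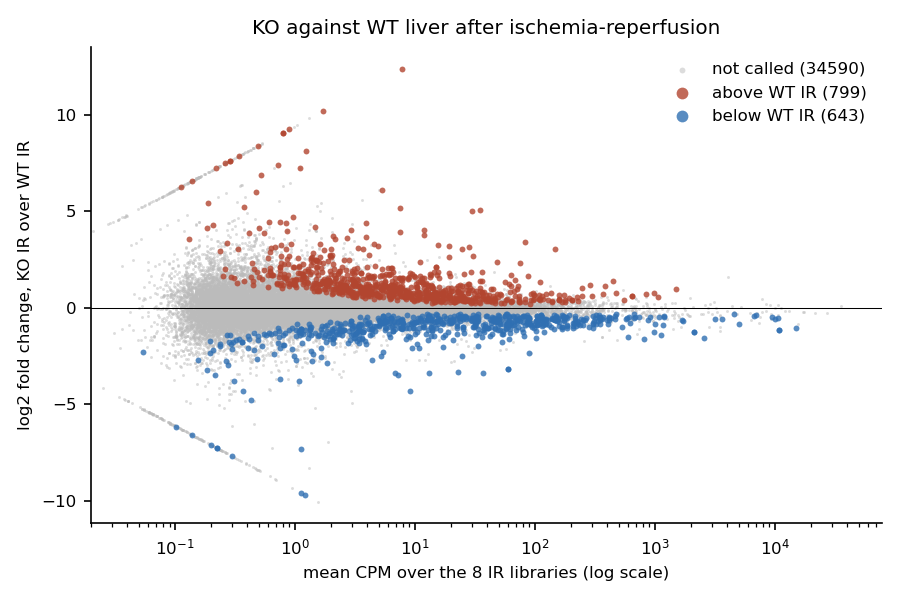
Log2 fold change of KO IR over WT IR (vertical axis) against the mean level over the 8 IR libraries in CPM, the counts per 1000000 counts (horizontal axis, log scale), 1 point per transcript. The 799 transcripts called above WT IR are red, the 643 below are blue and the rest are grey; the straight diagonal rows at the left are transcripts with no counts in one of the groups. Transcripts with no counts in any IR library have no place on the log axis.

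The direction of the difference went with the level of the transcript. Levels are given as CPM, scaled by TMM, averaged over the 8 IR libraries. Up to 1 CPM, 93 of 15946 transcripts were above WT and 59 below. Between 1 and 10 CPM, 397 of 13461 were above and 201 below, so that transcripts above WT prevailed among those of low level. Between 10 and 100 CPM the counts were close, with 268 above and 237 below of 5783.

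Over 100 CPM the order was the opposite, with 41 of 851 transcripts above WT and 146 below. In this class 17.2% of transcripts were below WT and 4.82% above, and the median log2 fold change of the whole class was -0.14. On library totals alone, 143 were above and 67 below. DESeq2 called 84 above and 203 below, a filter of at least 10 CPM in 4 libraries gave 91 and 194, no filter gave 22 and 109, and a minimum log2 fold change of 1 gave 6 and 18. Without KO IR libraries 1 to 3 there were 3 and 10. Without KO IR 1 or KO IR 2, 73 or 66 transcripts of the class were below WT. Without WT IR 2, WT IR 3 or WT IR 4, 96, 97 or 85 were below. Those above numbered 19, 23, 17 and 19 without WT IR 2, WT IR 3, WT IR 4 or KO IR 2. Of 26 settings, the main one included, 25 had more transcripts of this class below than above WT, and library totals alone was the exception. The settings reuse the same libraries and are not independent, so the direction in this class is given relative to the scaling.

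Among the calls, the folds of abundant transcripts were small. The median log2 fold change of the calls went from 2.11 and -1.92 up to 1 CPM, through 1.15 and -1.09, then 0.68 and -0.73, to 0.6 and -0.63 over 100 CPM. The larger median fold of the calls above WT thus did not hold in the classes from 10 CPM up. Calls above WT were of lower level, with a median of 6.15 CPM against 18.1 CPM for those below.

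**Figure D2:**
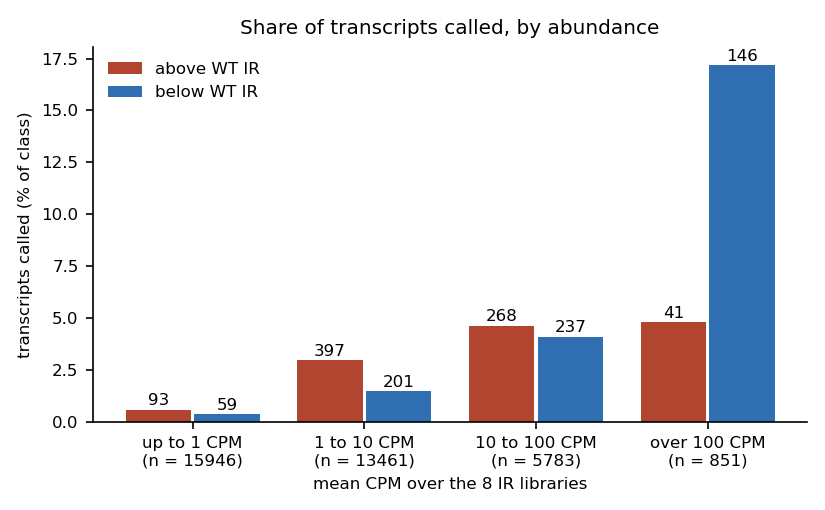
Percent of the transcripts of each abundance class that were called above (red) or below (blue) WT IR, with the number of calls over each bar. The class over 100 CPM is the only one of the 4 in which more transcripts lay below (146) than above (41).

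The transcripts at the very top of the liver's RNA were measured per length, in TPM (transcripts per 1000000 transcripts). Of 102 transcripts that averaged at least 1000 TPM over the IR libraries, 17 were below WT, by log2 fold changes of -0.3 to -1.57, and 4 were above, by 0.6 to 0.97. Of the 39 that averaged at least 5000 TPM, 7 were below WT (-0.39 to -1.17) and 0 above by edgeR. At an unadjusted p under 0.05 in edgeR, and by DESeq2, 0 of the 39 were above as well, against 9 and 7 of the 102. Transcripts below WT were not counted in these ways. On the TMM scale the median log2 fold change was -0.28 over all 102 and -0.3 over all 39.

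The 7 transcripts of at least 5000 TPM called below WT held 7.55, 7.18, 7.2 and 8.21% of all TPM in KO IR libraries 1 to 4. In WT IR libraries 1 to 4 they held 10.73, 11.89, 10.41 and 13.27%. Every KO IR library thus stood below every WT IR library, which is a description, as the 7 were called on these libraries. In sham livers the 7 held 10.83 to 15.7% (WT) and 13.96 to 17.24% (KO). All 102 transcripts of at least 1000 TPM, called or not, held 64.4 to 68.17% in KO IR and 67.66 to 73.6% in WT IR, ranges that overlapped.

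The full set of 643 transcripts below WT held 12.37, 11.79, 12.52 and 12.91% of TPM in KO IR 1 to 4, a mean of 12.4 ± 0.465% (SD, n = 4). It held 17.88, 19.1, 17.16 and 20.24% in WT IR 1 to 4, a mean of 18.6 ± 1.36% (SD, n = 4). In sham livers the same transcripts held 18.16 to 23.32% (WT) and 21.79 to 24.63% (KO). The KO IR livers were thus the lowest of the 4 groups, and the KO sham livers had the highest mean.

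The 799 transcripts above WT were a small part of the RNA. They held 3.49, 4.03, 3.14 and 3.0% of TPM in KO IR 1 to 4 and 1.78, 1.58, 1.76 and 1.41% in WT IR 1 to 4. In sham livers they held 1.71 to 2.04% (WT) and 1.79 to 2.05% (KO). WT sham overlapped both WT IR and KO sham, and all KO IR libraries lay above the 3 other groups. The sets were chosen on the IR libraries, so these shares are given as a description with no test.

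**Figure D3:**
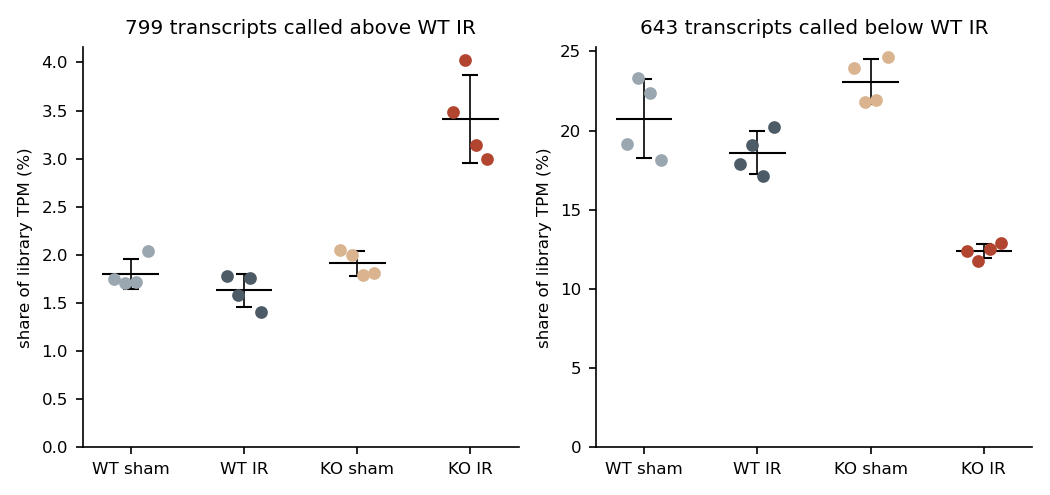
Share of each library's TPM (percent, vertical axes from 0) held by the 799 transcripts called above WT IR (left) and the 643 called below (right), 1 point per library, with group mean and SD (n = 4). The KO IR libraries lie at 3.0 to 4.03% on the left, above all others, and at 11.79 to 12.91% on the right, below all others.

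For most of these transcripts it was the KO livers after IR that lay outside the other groups. Among the 799 above WT, the 4 KO IR libraries lay above all 12 other libraries in 593, against 3.51% of all transcripts tested. Among the 643 below, they lay below all 12 others in 410, against 2.10% of those tested. For fewer transcripts it was WT IR that lay outside. WT IR lay below all 12 other libraries in 34 of the 799, against 98 of the 36041 tested, and above all 12 others in 59 of the 643, against 189 of those tested. The sets were called on these libraries, so both patterns are a description.

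By group mean, KO IR was the highest of the 4 groups in 773 of the 799 and the lowest in 604 of the 643, against 11476 and 11361 of the 36041 tested. WT IR had the lowest mean in 299 of the 799 and the highest in 254 of the 643, against 7675 and 8462 of those tested. On the log2 scale the median distance from WT IR of the 799 was -0.04 in WT sham livers, 0.0 in KO sham livers and 1.01 in KO IR livers. For the 643 it was 0.02, 0.07 and -0.88. These orders and distances are a description too, as the IR libraries gave the calls.

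The sham livers share no library with the IR livers, but they entered the fit that gave the calls. Without 1 sham library 1254 to 1679 transcripts were called between KO IR and WT IR. In the sham livers, the 799 transcripts had a median log2 difference of KO minus WT of 0.04 and the 643 one of 0.06. Over all transcripts tested it was -0.01. KO was the higher in 61.2% of the former, 64.4% of the latter and 49.1% of all tested. By edgeR 0 of the 799 and 2 of the 643 passed the test after sham, of 3 transcripts in all (0.00832% of those tested). At an unadjusted p under 0.05 the counts were 33 and 40 (4.13% and 6.22%, against 3.68% of all tested), and DESeq2 called 1 and 5, of 57 over all tested.

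An interaction term in the same model tested whether KO differed from WT to another extent after IR than after sham. It passed for 119 transcripts (0.330% of those tested), among them 50 of the 799 above WT (6.26%) and 65 of the 643 below (10.1%). The term uses the same IR libraries as the calls, so these shares are a description. For the remaining calls a difference between the surgeries was not shown. The count of 119 became 51 to 378 on leaving out 1 library. It was 378 without KO IR 3. It was 51 to 72 without any single KO sham or WT IR library, and also without KO IR 1, KO IR 2, WT sham 2 or WT sham 3.

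The 4 KO IR libraries did not depart from WT to the same extent. For the 799 transcripts above, the median log2 distance from the WT IR mean was 1.03, 1.28, 0.74 and 0.89 in KO IR 1 to 4. For the 643 below it was -0.83, -1.12, -0.66 and -0.84. KO IR 2 was the highest of the 4 in 511 of the 799 and the lowest in 399 of the 643. KO IR 3 was the nearest to WT most often, as the lowest of the 4 in 430 and the highest in 362.

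All 4 libraries entered the calls, so these distances are a description. Among the 4 WT IR libraries the medians ran from -0.08 to 0.1 for the transcripts above and from -0.01 to 0.04 for those below. With KO IR 4 as the only KO IR library, assumed to vary like the other groups, 110 transcripts were called, 38 above and 72 below, and 70 of the 1442 were among them with the same direction. In transcripts of 10 CPM or more the median SD of log2 CPM was 0.14 in WT IR and 0.17 in KO IR, against 0.22 for WT and 0.15 for KO livers after sham surgery.

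All 4 KO IR libraries were above all 4 WT IR libraries in 765 of the 799 transcripts, and below in 621 of the 643. Over all transcripts tested this held for 7.40% and 6.54%. The sets were called on these libraries, so the lack of overlap is a description. The number of calls moved with single libraries. Without KO IR 1 or KO IR 2, 900 or 596 transcripts were called. The number was 832, 865 or 757 when the one omitted was WT IR 2, WT IR 3 or WT IR 4. In all 8 fits that left out 1 IR library, 537 of the 1442 were called with the same direction, 292 above and 245 below WT. Over 100 CPM, 17 of these were above and 59 below.

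**Figure D4:**
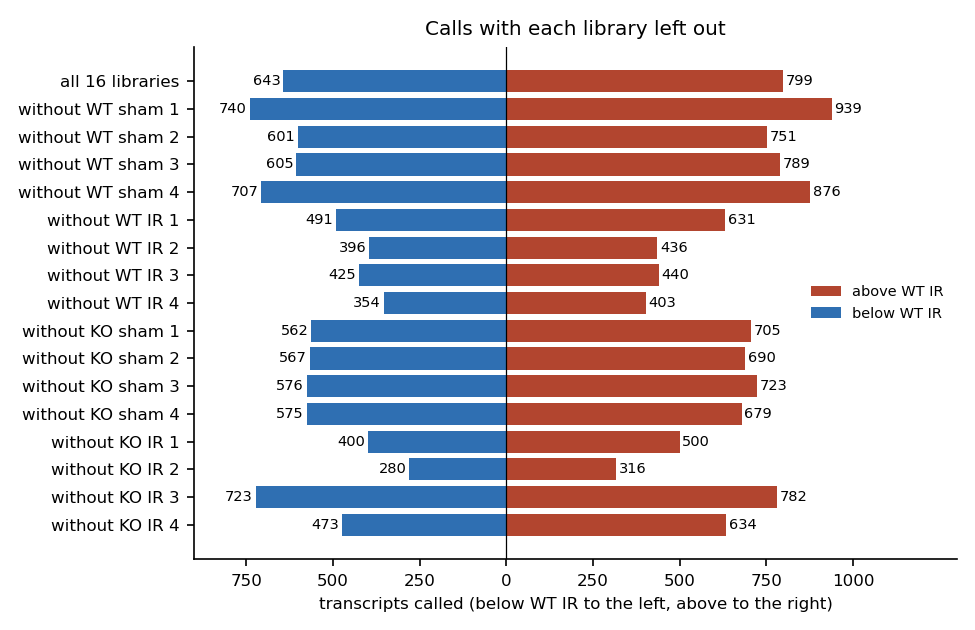
Number of transcripts called above WT IR (red, to the right) and below (blue, to the left) with all 16 libraries and with each library left out. The fewest calls, 316 above and 280 below, came without KO IR 2, and the most, 939 and 740, without WT sham 1.

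The share of transcripts called varied with length, and not in the same way at all levels. Over all transcripts tested, 3.09% of those under 1000 nt, 5.47% of those of 1000 to 1999 nt, 4.08% of those of 2000 to 3999 nt and 3.51% of those of 4000 nt or longer were called. The median length was 2183 nt for the transcripts above WT, 1920 nt for those below and 2188 nt for all tested. At 10 CPM or more, the share was lowest in the longest class. Of transcripts under 1000 nt 13.6% were called, of those of 1000 to 1999 nt 14.1%, of those of 2000 to 3999 nt 10.1% and of those of 4000 nt or longer 5.75%. In the shortest class at this level 59 were above WT and 59 below. From 2000 to 3999 nt 97 were above and 153 below, and from 4000 nt 44 and 52. The median length was 1882 nt for the transcripts above, 2095 nt for those below and 2541 nt for all of this level. Weighted by TPM, the mean transcript length was 1189 ± 32.4 nt in KO IR and 1149 ± 28.8 nt in WT IR libraries (SD, n = 4), a difference that did not pass the exact permutation test (two-sided p = 0.1143, adjusted p = 0.2286).

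A few transcripts were present in one genotype and had no counts in the other. At least 10 counts in all 4 KO IR libraries and 0 in all 4 WT IR libraries were found in 12 transcripts, and the reverse in 7. Between KO and WT sham livers, 5 transcripts showed each pattern. Among the calls, 13 transcripts above WT had no counts in WT IR and 40 to 2830 counts over the KO IR libraries. Of these, 4 had no counts in the 8 sham libraries either. The 8 transcripts below WT with no counts in KO IR had 36 to 426 over the WT IR libraries, and each of them had counts in at least 1 sham library.

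Counts below are rounded to whole numbers, and TPM is given as 0 where the count rounds to 0. The transcripts named here had the 2 highest and the 2 lowest fitted folds among calls of at least 1 CPM whose IR groups did not overlap. ENSMUST00000032416.10, of 1703 nt, lay above WT. It stood at 11, 17, 8.6 and 11.1 TPM in KO IR 1 to 4, a mean of 11.9 ± 3.58 TPM (SD, n = 4), and at 0 in all 4 WT IR libraries. In sham livers it stood at 0.143 TPM in WT 1 and 0.56 TPM in KO 1 and at 0 in the other 6 libraries. It was thus nearly restricted to KO IR, with 2830 counts there against 0 in WT IR. With the WT IR total set to 3 counts as a floor for the group, and scaled by library totals, it was at least 1050-fold higher (edgeR adjusted p = 0.00775). The test of the interaction did not pass (edgeR adjusted p = 0.219).

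ENSMUST00000189268.6, of 2347 nt, also lay above WT but was not restricted to KO IR. Its levels were 2.29, 3.55, 0.717 and 0.945 TPM in KO IR 1 to 4 and 0 in all 4 WT IR libraries (edgeR adjusted p = 0.0123). It was present in sham livers, at 0.948, 0, 0.941 and 2.84 TPM in WT 1 to 4 and 1.88, 0.97, 0.991 and 0.909 TPM in KO 1 to 4. KO IR overlapped both sham groups, and WT IR overlapped WT sham, whose library 2 was also at 0. The interaction did not pass (edgeR adjusted p = 0.0781).

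The estimated counts of ENSMUST00000189268.6 came in steps. In 6 libraries they lay between 94.1 and 94.3, and in 9 of the 11 libraries with counts they were within 0.03 of a whole multiple of 92.7. Its 614 counts in KO IR are therefore not given as a fold. Of the called transcripts with counts in at least 6 libraries, 794 above WT and all 643 below, 1 showed such steps, namely this one.

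ENSMUST00000100933.9, of 4383 nt, lay below WT. It was at 0 TPM in all 4 KO IR libraries and at 0.422, 0.713, 0.927 and 0.174 TPM in WT IR 1 to 4. In sham livers it stood at 0.152 to 1.05 TPM in WT and at 0.0783 to 1.68 TPM in KO. The WT IR and both sham groups overlapped, and KO IR alone was empty. With 0 against 426 counts it was at least 128-fold lower (edgeR adjusted p = 0.00748).

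ENSMUST00000015107.12, of 3212 nt, showed the same pattern. It was at 0 TPM in the KO IR libraries and at 0.82, 0.523, 1.33 and 0.216 TPM in WT IR 1 to 4. WT sham livers held 0.2 to 2.0 TPM and KO sham livers 0.185 to 1.06 TPM. With 0 against 397 counts it was at least 119-fold lower (edgeR adjusted p = 0.00345). For both transcripts the interaction passed (edgeR adjusted p = 0.0458 for ENSMUST00000100933.9 and 0.0384 for ENSMUST00000015107.12). The folds of the 3 transcripts cover counting error only. Without KO IR libraries 1 to 3 the fitted log2 fold change of ENSMUST00000032416.10 was 12.42, against 12.38 with all libraries. For the transcripts below WT the fitted values stayed at -9.69 and -9.59 in that fit, as every KO IR library was at 0. On leaving out 1 library of the 16 they were -9.98 to -9.34 and -9.87 to -9.11. In each of the 4 named transcripts 1 IR group had no counts, so the size of the fitted fold is not a measured one.

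**Figure D5:**
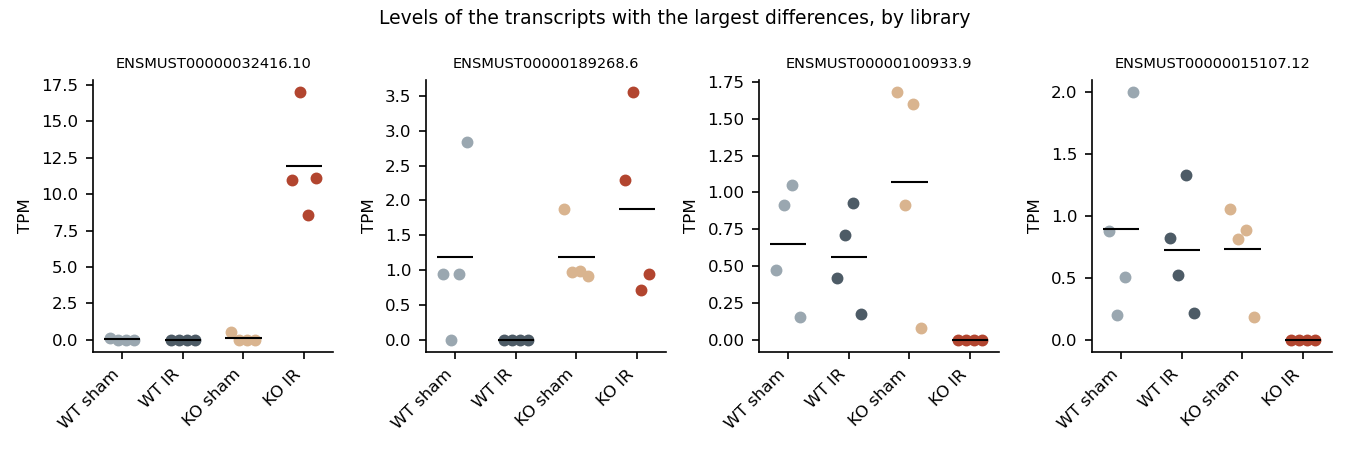
TPM (vertical axes, linear, 1 scale per panel) of the 4 named transcripts in each of the 16 libraries, with group means as lines. ENSMUST00000032416.10 is high in KO IR alone, ENSMUST00000189268.6 is at 0 in the 4 WT IR libraries and in WT sham 2, and ENSMUST00000100933.9 and ENSMUST00000015107.12 are at 0 in KO IR alone.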

How the data were processed

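RNA was measured in 16 liver libraries. Per the submitters' processing notes, the authors used Trimmomatic and kallisto and the build mm10, with no versions. Per the file headers, the deposited values are kallisto's estimated counts, TPM, lengths and effective lengths for 111462 transcripts, and they were not pooled. Fragment length was taken as the length less the effective length plus 1, in transcripts over 5000 nt. Estimated counts were rounded and tested in edgeR 4.0.16 (R 4.3.3, limma 3.58.1) after filterByExpr, with TMM factors, robust quasi-likelihood dispersion, 1 coefficient for each of the 4 groups and 12 residual degrees of freedom. Benjamini-Hochberg adjustment ran over all transcripts tested. TPM only described levels. Within IR groups all 12 pairs of libraries differed beyond counting noise (chi-square of 26.4 or more per degree of freedom). DESeq2 1.42.0, other filters and scalings, a replicate block and the omission of each library were alternatives. The fit was tested on simulated data. The named transcripts are the 2 highest and 2 lowest folds among calls with at least 1 CPM and no overlap of the IR groups. The members and rules were chosen with earlier results of these data known. The planned sums per gene and gene groups were not run, because transcripts were not paired with genes. The library measures, abundance classes and count steps were chosen after the files were seen. The CUT&RUN samples were not used here.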

Additional observations from a re-analysis of the deposited data

Results flagged for a closer look

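Of 28 sets of 4 values checked for a library far from the rest, 5 held one, where chance gives about 1 in 20. In KO IR, library 4 stood apart by its total of 44.35 M estimated counts, and library 3 by its 30092 transcripts of at least 10 counts, against 32245 to 32370 in the other KO IR libraries. For ENSMUST00000032416.10, WT sham 1 at 0.143 TPM and KO sham 1 at 0.56 TPM stood apart from libraries at 0. Any value above 0 would be flagged in such a set, so the rate of 1 in 20 does not apply there. For ENSMUST00000189268.6, KO sham 1 at 1.88 TPM stood apart from 0.909 to 0.991 TPM.

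The difference of KO from WT after IR differed from that after sham, by the interaction test of edgeR, in 119 transcripts. KO minus WT was higher after IR than after sham in 52 of them and lower in 67, whichever group moved. Of these, 115 were also called between KO IR and WT IR, a comparison that the interaction contains. ENSMUST00000100933.9 (edgeR adjusted p = 0.0458) and ENSMUST00000015107.12 (edgeR adjusted p = 0.0384) were among them.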

How the results depend on the processing

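The 1442 transcripts called between KO IR and WT IR became 2944 with DESeq2, 887 with no filter on low counts and 682 with a minimum log2 fold change of 1. With alternatives chosen after seeing the data they became 110 without KO IR libraries 1 to 3 and 2639 with library totals only. On leaving out 1 library they ranged from 596 to 1679. With RLE factors, at least 10 CPM in 4 libraries, or only the 8 IR libraries the count was 1439, 1299 or 1169. DESeq2 shared 1424 of the 1442 with the same direction, and no setting called any of the 1442 in the opposite direction.

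The interaction count of 119 became 1085 with DESeq2, 67 with no filter, 451 with at least 10 CPM in 4 libraries, 63 without KO IR libraries 1 to 3 and 192 with library totals only. On leaving out 1 library it ranged from 51 to 378. The causes were not tested.

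Same-numbered KO IR and WT IR libraries did not deviate together (correlations of -0.041, -0.013, 0.028 and 0.014), and 2 of 4 KO IR libraries correlated best with their own number. With the replicate number as a block 1129 transcripts were called, and 35 for the interaction.

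The 4 named transcripts kept their call in every alternative that tested them but the one without KO IR libraries 1 to 3. Their direction could not reverse in any alternative, as 1 IR group had no counts in each of them. The alternatives planned per gene were not run.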

Other observations

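Estimated counts that come in steps were looked for after the values of ENSMUST00000189268.6 were seen. In 62 of the 36041 transcripts tested (0.172%), at least 80% of the libraries with counts lay within 0.03 of a whole multiple of 1 step of at least 10 counts, with 6 or more libraries above 0. All 62 were at 10 CPM or less, 32 of them up to 1 CPM and 30 between 1 and 10 CPM. Of the 1442 calls between KO IR and WT IR, 1 was among them, ENSMUST00000189268.6. The rule could not be met by 5 called transcripts with counts in fewer than 6 libraries. Its estimated counts were 184.5, 278.1, 58.5 and 94.1 in KO IR 1 to 4, which are 1.99, 3.0, 0.63 and 1.01 steps of 92.7, and 94.3, 0, 94.3 and 274.3 in WT sham 1 to 4.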
